A study of Homo sapiens with 2 samples.

Results

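MYC and the 4 Mb around it on chromosome 8 (GRCh38, 126000000 to 130000000, in band 8q24) were examined for anti-Flag peaks of HOXA5. The region was chosen by measured values, since MYC was the nearest protein-coding gene of 19 LV-HOXA5 peaks, and every peak with a base in the region was taken as a member. There were 31 such peaks of 8043 in the LV-HOXA5 list and 0 of 635 in the LV-HOXA5-NC list. The number of peaks near MYC is therefore a description of how the region was selected, and no test was made on it.

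An anti-Flag CUT & Tag assay of TFK-1, an established line of extrahepatic cholangiocarcinoma, was made to map where HOXA5 lies on the genome. LV-HOXA5 cells carried a lentivirus that expresses Flag-tagged HOXA5, and LV-HOXA5-NC cells carried the control vector. Each group had 1 library from 1000000 cells, with 15778555 fragments for LV-HOXA5 but 1948734 for the control, so the groups differ in depth as well as in HOXA5. The tagged protein was overexpressed from a vector in 1 cell line, and with 1 library per group each value describes that library only.

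MYC encodes a transcription factor that pairs with MAX and drives genes of growth and division. PVT1 is a long non-coding RNA (lncRNA) gene beyond the transcript end of MYC, and both are read towards higher coordinates. The wide, gene-poor stretch around them is known for enhancers and for non-coding RNA genes, among them the CASC and CCAT genes named for cancer susceptibility and colon cancer.

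At MYC itself (127735434 to 127742951), 1 LV-HOXA5 peak was found, and it lay over the higher-coordinate end of the gene, not at its start. The peak ran from 127742836 to 127743376 (541 bp), and its summit lay 190 bp beyond the last base of MYC. Its pileup, which counts the fragments that cover the summit, was 30 (95% Poisson interval 20.2 to 42.8). Its fold enrichment over the local background was 4.20, and 28.5% of the list had a lower fold enrichment, while 84.2% had a lower pileup. The closest base of the peak was 7402 bp from the start of MYC, and 0 peaks lay within 3 kb of that start. These intervals, and those of shares given further on, cover counting error only.

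The next peak before MYC, from 127668161 to 127669024, was 66410 bp from the start of the gene and touched the end of the lncRNA gene LOC105375754. It had a pileup of 30 and a fold enrichment of 5.55, the fifth highest of the region. Between MYC and PVT1, a gap of 51573 bp, there were 0 peaks.

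PVT1 (127794524 to 128101256, 307 kb) held 7 peaks, the most of any gene in the region. None was near an end of the gene, the closest being 14970 bp inside its lower-coordinate end. That peak (127809494 to 127810610) was the longest of the region at 1117 bp, with a pileup of 40 (28.6 to 54.5) and a fold enrichment of 4.86. Then 4 peaks followed within 19.5 kb. The first of these (127851440 to 127852210) had a pileup of 31 but the lowest fold enrichment of the region, 2.79, over a local background of 10.5 fragments. The second (127854238 to 127854696) had a pileup of 37 and a fold enrichment of 3.29 over an equally high local background of 10.5. So these neighbours were well filled but stood little above their surroundings. The others (127859666 to 127860354 and 127870566 to 127870929) had pileups of 27 and 28 and fold enrichments of 4.01 and 3.84. The sixth peak (127900750 to 127900997) was weaker, with a pileup of 16 and a fold enrichment of 3.66. It closed a stretch that took 6 of the 7 peaks into the 106 kb next to the MYC side of the gene. The last one (128034973 to 128035400) came 134 kb later, with a pileup of 21 and a fold enrichment of 4.56.

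Beyond PVT1, peaks were again found over lncRNA genes. LOC124902020 held 2, of which the one from 128176553 to 128177475 had the second highest fold enrichment (6.52) and pileup (47) of the region. LINC00824 held 4, with fold enrichments from 3.44 (128522526 to 128522852) to 5.70 (128554858 to 128555414). CCDC26 held 1 (pileup 10, fold enrichment 4.19). At the far end of the region, GSDMC, which encodes a pore-forming gasdermin, held 2 peaks with pileups of 44 and 36, and CYRIB, which encodes a protein that binds the GTPase RAC1, held 1 with a pileup of 22.

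On the other side of MYC, 7 peaks were nearest to POU5F1B, a retrogene of POU5F1, although the closest of them was 90396 bp away from it. Of these, 5 lay over the CASC and CCAT lncRNA genes. The strongest peak of the region (127218833 to 127219636) covered the higher-coordinate end of CCAT1, with a pileup of 96 (77.8 to 117) and a fold enrichment of 6.93, and 88.0% of the list had a lower one. A second peak inside CCAT1 (127215159 to 127215498) had a pileup of 37 and, over a local background of 11.1, a fold enrichment of only 3.13. CASC21 held 2 peaks, 1 of low fold enrichment (127247381 to 127247707, 3.01) and 1 of high fold enrichment that it shares with CASC8 (127294103 to 127295179, 5.70). CASC19 held 1 with the lowest pileup of the region, 9. LRATD2, the remaining protein-coding gene, was 477250 bp from its closest peak. The 7 peaks of the region that touched no gene had pileups from 13 to 26 and fold enrichments from 3.95 to 5.47.

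**Figure D1:**
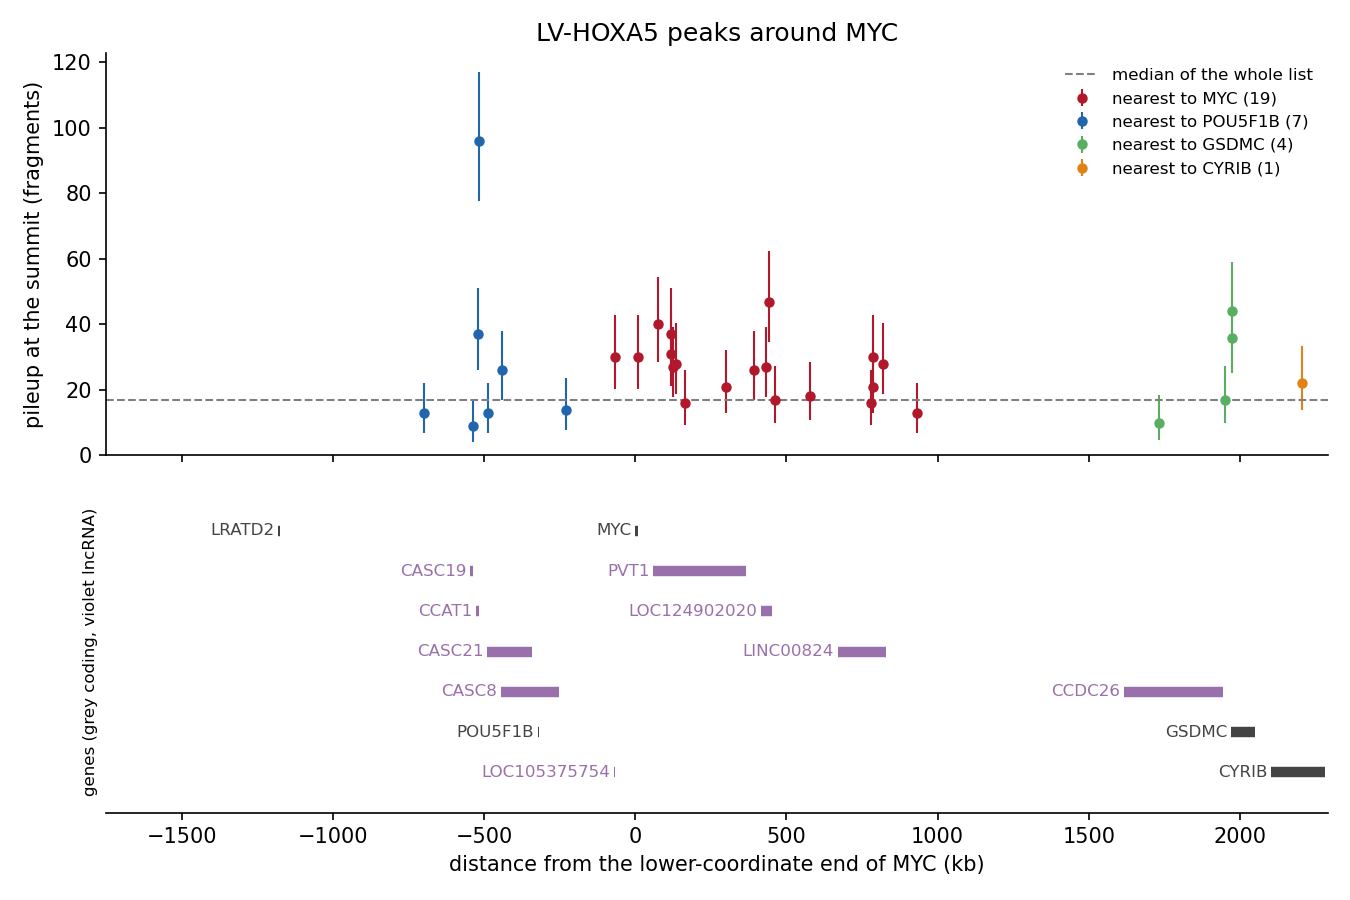
Pileup at the summit (fragments) of the 31 LV-HOXA5 peaks by distance from the start of MYC (kb), coloured by the nearest protein-coding gene, with bars for the 95% Poisson interval; the dashed line is the median of the whole list (17). Below, the named genes are drawn to scale. The peaks of highest pileup are the 1 at CCAT1 (96) and the 1 in LOC124902020 (47), and PVT1 holds 7 peaks.

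The map of pileup by distance shows that peaks were present on both sides of MYC but were unevenly spread. No peak was found in the first 1036 kb of the region, and a gap of 800 kb separated the last peak nearest to MYC (128666250 to 128666643) from the one in CCDC26. The 19 peaks nearest to MYC spanned 998483 bp. The median gap between neighbouring peaks was 40.1 kb over 30 gaps, compared with 131 kb over 327 gaps on the rest of chromosome 8. Shorter gaps go with the choice of a stretch with many peaks and are not a separate trait. Outside the region, the closest peaks were a peak with a pileup of 17 that ended 335332 bp before it and one with a pileup of 11 that started 1325100 bp after it.

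Most members lay over lncRNA genes. A base was shared with a lncRNA gene and with no protein-coding gene by 20 of 31 peaks (64.5%, exact 95% interval 45.4% to 80.8%), compared with 10.1% of all LV-HOXA5 peaks on chromosomes 1 to 22, X and Y and 13.7% of the 329 on the rest of chromosome 8. Such genes also covered more of the region, 42.8% of its bases against 14.8% on the rest of the chromosome, and the part of this gene content in the share of peaks was not tested. A protein-coding gene was touched by 4 (12.9%), against 44.6% of all peaks and 52.3% on the rest of chromosome 8. No gene was touched by 7 (22.6%), against 42.3% of all peaks and 30.4% on the rest of chromosome 8. Coding genes covered 6.47% of the region against 41.3% of the rest of the chromosome. Within 3 kb of a gene end there were 6 of 31 peaks (19.4%, 7.45% to 37.5%), against 41.8% of all peaks and 48.3% on the rest of chromosome 8. The median distance to the nearest gene end was 14697 bp (5498 to 43656) for the members, 3657 bp (2049 to 6130) on the rest of the chromosome and 6282 bp (5786 to 6802) over the whole list. Of the 50 annotated genes in the region, 12 held a peak or had one within 3 kb, namely 9 of 26 lncRNA genes, 3 of 5 protein-coding genes, 0 of 13 pseudogenes and 0 of 6 miRNA genes. By the same rule, 8.76% of all lncRNA genes, 20.7% of all protein-coding genes, 2.45% of all pseudogenes and 4.34% of all miRNA genes had one. The region, with MYC in it, was chosen for its peaks, so higher shares for its lncRNA and protein-coding genes are built into that choice.

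The region held 7.75 peaks per Mb (5.27 to 11.0), which was 3.32 times the 2.33 per Mb on the rest of chromosome 8. The region was chosen for its peaks, so a high density and a high rank among windows are built into that choice. The interval covers counting error only and takes the peaks as independent, although they lie in clusters. With 1.25 protein-coding genes per Mb, against 5.03 on the rest of the chromosome, it was gene-poor. Windows of 4 Mb were placed so that the chosen region filled a window exactly, which other stretches with many peaks need not do. Of the 35 full windows of 4 Mb on chromosome 8, the MYC window had the most peaks, followed by windows with 29 and 22, and the median of the other 34 was 8. The adjoining windows held 18 and 2. On chromosomes 1 to 22, 25 of 699 such windows had 31 or more peaks, and 7 of these 25 contained no control peak. The other 6 of those 7 held 45 to 145 protein-coding genes each, while the MYC window held 5. The median local background, described further on, was 2.33 to 4.73 fragments in these 6 and 4.09 in the MYC window, and 2 of the 6, both on chromosome 19, were above it (4.71 and 4.73).

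**Figure D2:**
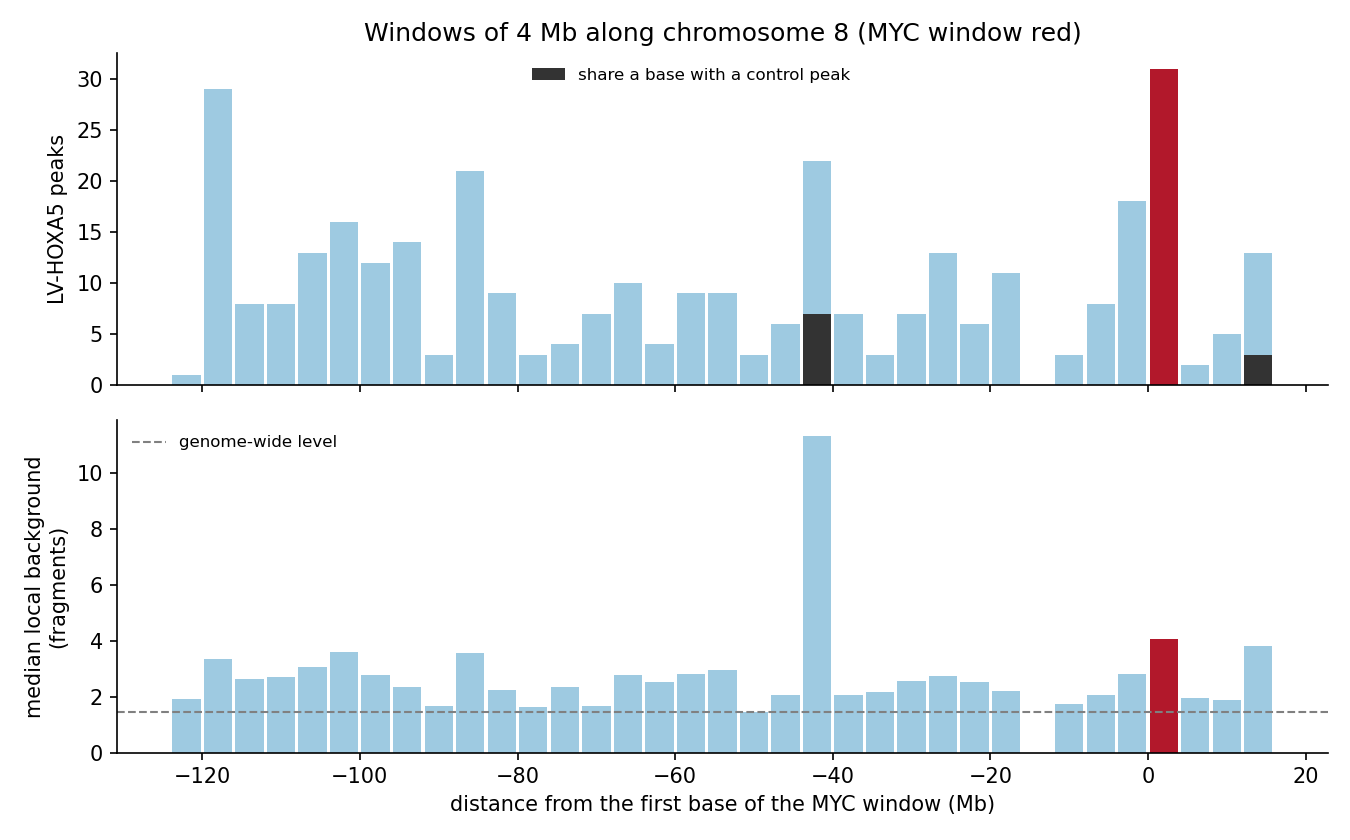
LV-HOXA5 peaks (upper bars, number; dark, those that share a base with a control peak) and the median local background of the peaks (lower bars, fragments) in the full windows of 4 Mb along chromosome 8, by distance from the first base of the MYC window (Mb). The MYC window, in red, has 31 peaks, 0 shared with the control, and a median local background of 4.09, and the dashed line is the genome-wide level of 1.44.

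The local background was also higher in the region. It is the fragment level the peak caller expects from the 10 kb around a peak, or the genome-wide level if that is higher, and it was recovered as (pileup + 1) / fold enrichment - 1. It comes from the LV-HOXA5 library itself, as the peaks were called without a control library. Its median was 4.09 fragments over the members (95% interval 3.40 to 6.36), 2.74 (2.57 to 2.89) over the rest of chromosome 8 and 2.55 over the whole list, beside a genome-wide level of 1.44. At 2 or more times that level were 25 of 31 members (80.6%, 62.5% to 92.5%), compared with 45.3% on the rest of chromosome 8 and 40.2% of all LV-HOXA5 peaks. Of the other 33 windows with peaks on chromosome 8, 1 had a higher median background, 11.3, and there 7 of 22 peaks shared bases with the control.

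Neighbouring peaks can lie in each other's surroundings, so close members are given apart, a split made after the data were seen. Another member was within 10 kb of 12 of the 31 (38.7%), and another peak was this close to 21.3% of those on the rest of chromosome 8. A larger share here also goes with the choice of a stretch with many peaks. The median background was 6.92 for these 12 and 3.64 for the other 19, compared with 2.51 for the 259 peaks without a close neighbour on the rest of the chromosome. Each peak's own fragments also lie in its 10 kb. The part of close peaks and of higher pileups in this background, and the part of the background in the number of peaks, was not tested. Whether fragments over the region were raised for reasons other than HOXA5 was not tested either.

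**Figure D3:**
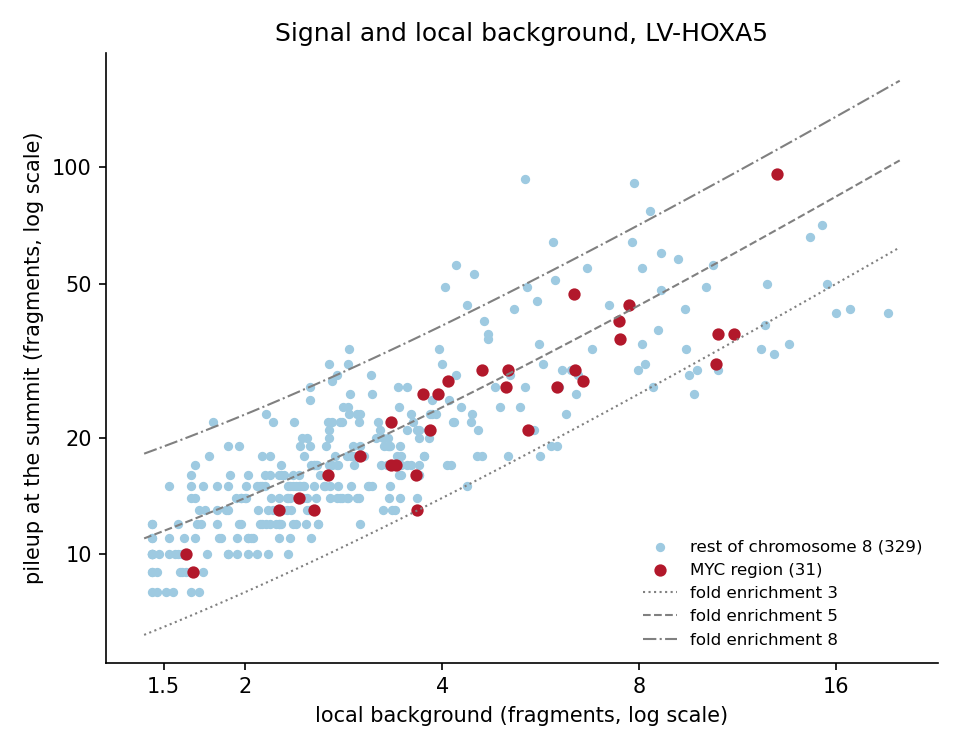
Pileup at the summit against local background (fragments, both on log scales) for the 31 peaks of the MYC region (red) and the 329 of the rest of chromosome 8 (blue), with lines of equal fold enrichment. The members have the higher median on both axes (pileup 26 and 17, background 4.09 and 2.74) and lie between fold enrichments of 2.79 and 6.93.

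The plot of pileup against background shows members with many fragments at moderate enrichment. The median pileup was 26 (17 to 30) in the region and 17 (16 to 18) on the rest of chromosome 8, and 23 of 31 members were at or above the median of the whole list, as were 52.3% on the rest of chromosome 8 and 51.7% of all peaks. In contrast, the median fold enrichment was 4.37 (4.01 to 4.86) in the region and 4.58 (4.46 to 4.73) on the rest of the chromosome. At or above the list median of 4.82 were 10 of 31 members (32.3%, 16.7% to 51.4%), compared with 41.0% on the rest of chromosome 8 and 50% of all peaks by construction, both within that interval. The median length was 470 bp (356 to 682), against 408 bp (387 to 431). The intervals of medians describe the spread among peaks of 1 library, which are not replicates, and close members share their surroundings. The medians are therefore given as a description, and no difference was tested.

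No control peak was found in the region, and 0 of 31 members shared a base with one, which allows a share of up to 9.68%. Over the whole list, 5.52% of LV-HOXA5 peaks did. The control peak closest to MYC was 10.5 Mb away (138206336 to 138206802), and chromosome 8 had no control peak over 48.0 Mb around the region, where the LV-HOXA5 list had 107.

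The control library held 12.4% of the LV-HOXA5 fragments, so it was asked which members it could have shown. Scaled by the totals, member pileups ran from 1.11 to 11.9 with a median of 3.21, and 7 of 31 (22.6%) reached 4, the lowest pileup of the control list, compared with 13.2% of all LV-HOXA5 peaks. Of all peaks that reached it, 29.2% shared a base with a control peak, and of these 7 members 0 did. When a member also had to reach the lowest p-value of the control list over its own scaled background, it needed 4 to 10 fragments, and only the CCAT1 peak with a pileup of 96 was left (1 of 31, against 4.63% of all peaks). When the scale was taken from the 401 peaks shared on chromosomes 1 to 22, whose control pileup was at the median 45.6% of that in LV-HOXA5, 31 of 31 reached the lowest control pileup, as did 99% of all peaks. That scale comes only from peaks already called in the control, which selects high control pileups, so it is no estimate for the other peaks. By the totals, the absence of a control peak could not be told apart from the lower depth for the members. Even the CCAT1 peak, at 11.9 scaled fragments against 10 needed, was close to its limit, given the counting interval of its pileup.

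**Figure D4:**
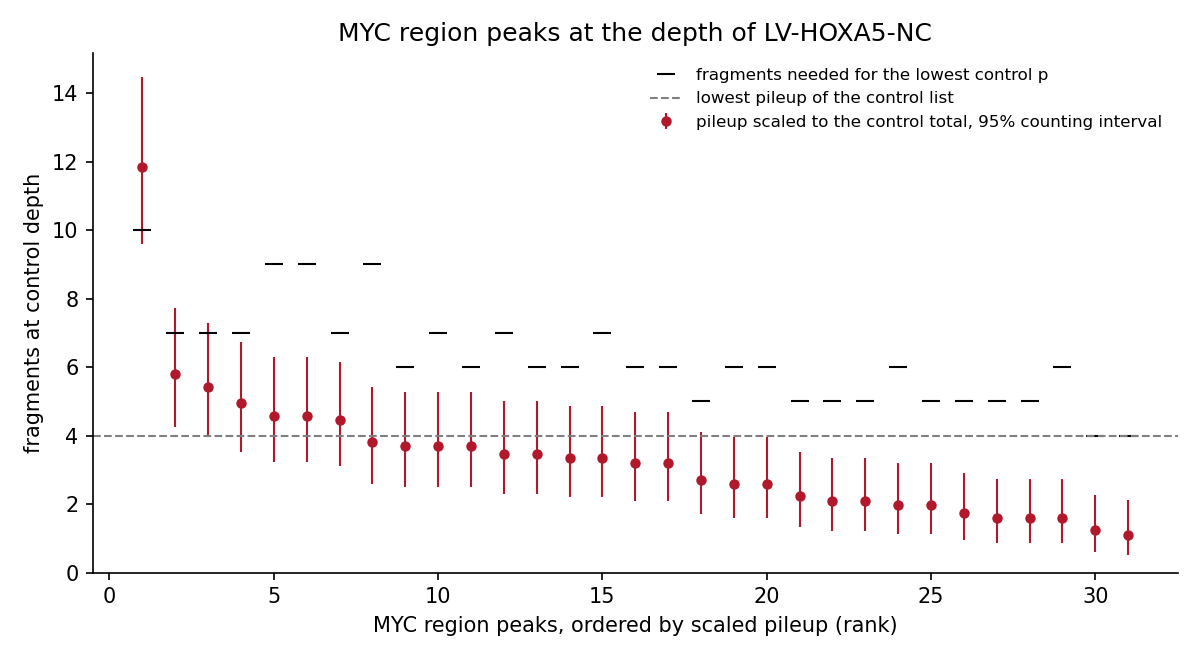
Pileup of the 31 members scaled to the total of LV-HOXA5-NC (fragments, ordered from high to low, with 95% Poisson intervals scaled alike), the fragments each would need for the lowest control p-value (black dashes) and the lowest control pileup of 4 (dashed line). Of the members, 7 lie above 4 and 1 above its own black dash.

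MYC was the nearest protein-coding gene of 19 peaks, and 29 others of the 20037 protein-coding genes had as many or more. The median was 1 over the 4545 genes with any. On chromosome 8 the next highest gene had 10. The stretch nearest to MYC was 1.15 Mb long, so its peaks came to 16.6 per Mb, compared with 2.60 per Mb over the whole list. Genes with shorter stretches had higher densities on fewer peaks, as on chromosome 8 LOC101929601 (10 peaks, 75.2 per Mb), LOC124902048 (9 peaks, 59.6 per Mb) and TCIM (8 peaks, 31.0 per Mb). Some genes with longer stretches and more peaks were also denser, as ZNF33B (119 peaks, 50.7 per Mb) and EMB (108 peaks, 43.1 per Mb). Of their peaks, 32 and 30 were shared with the control. The 19 peaks of MYC rest on the choice of coding genes, as with all annotated genes MYC was nearest to 1 peak only.

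The genes most like MYC in this number were, of 20037, TPTE, PRIM2 and CCDC200 with 19 each, LOC124905938 with 20 and ALG10B with 17. KCNJ18 also had 17, 4 of them shared with the control, and came after ALG10B only because its 5.78 peaks per Mb were further from the value of MYC than 7.33. Their peaks differed from those of MYC in other values. CCDC200 had a median local background of 28.2, and 6 of its 19 peaks shared a base with a control peak. For TPTE and ALG10B, 2 and 5 peaks were shared, over median backgrounds of 1.48 and 1.53. PRIM2 and LOC124905938 shared 0, like MYC, with median backgrounds of 1.75 and 1.78, compared with 5.00 for the peaks of MYC. MYC, PRIM2 and LOC124905938 were the only genes with 19 or more nearest peaks and no peak shared with the control.

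**Figure D5:**
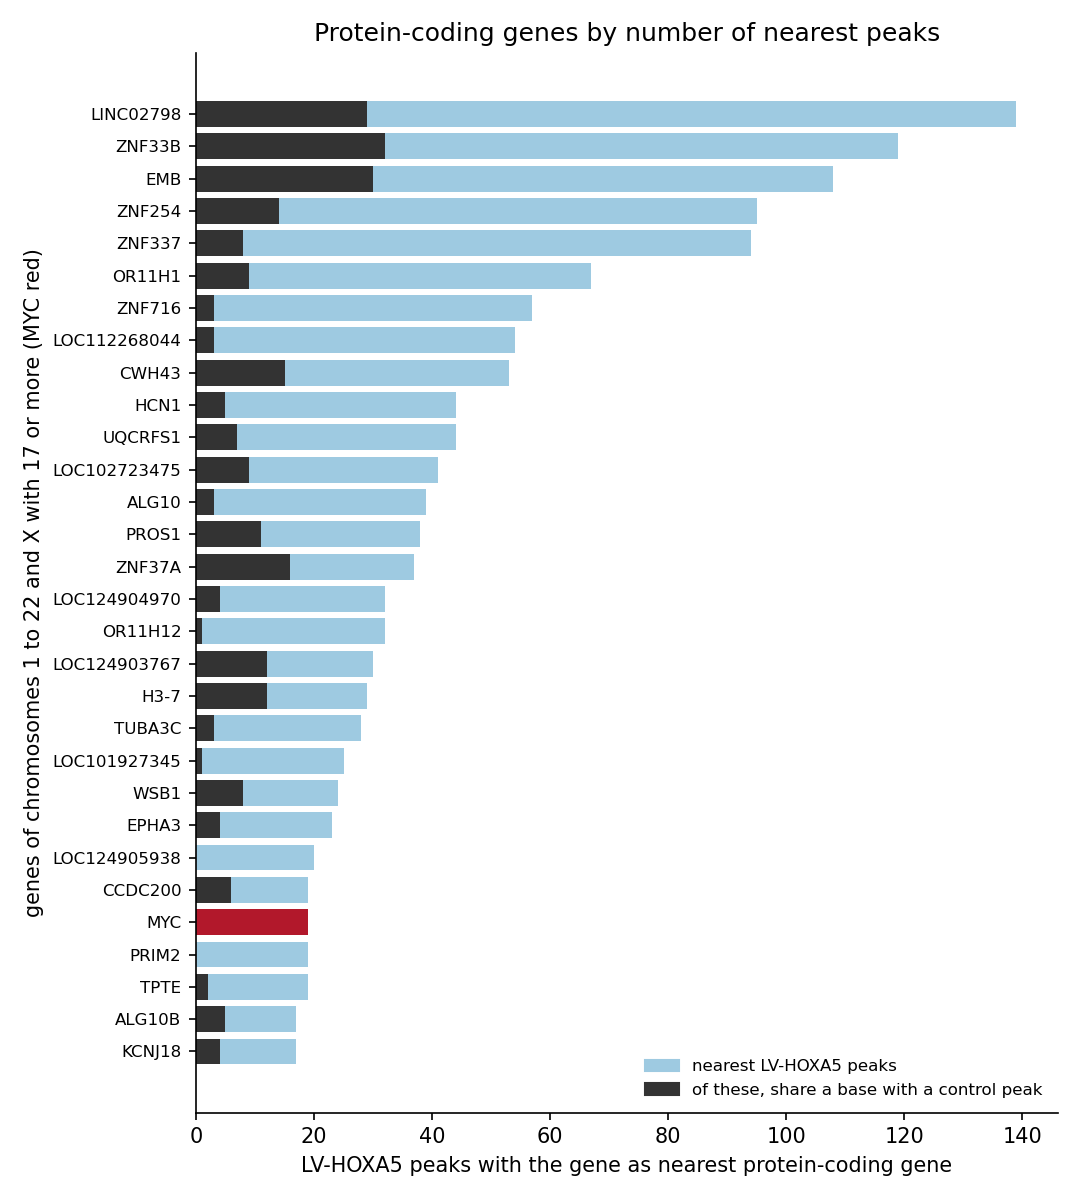
Number of LV-HOXA5 peaks with the gene as nearest protein-coding gene (bars) and, of these, the peaks that share a base with a control peak (dark), for genes of chromosomes 1 to 22 and X with 17 or more. MYC, in red, has 19 peaks and 0 shared with the control.

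The plot of nearest peaks shows that most genes with such numbers had peaks in common with the control. Among the other genes of the MYC network, no such accumulation was seen. The family members MYCN and MYCL were 580124 and 374892 bp from their closest peak. MAX, the partner that MYC needs to bind DNA, was 18989 bp from its closest peak. Of the MAX partners that oppose MYC, MXD1 had a peak 121 bp from an end (pileup 32, fold enrichment 7.36) and MNT one 505 bp from an end (pileup 34, fold enrichment 4.31), while MXD4 was 4958 bp, MXI1 111547 bp, MXD3 113279 bp and MGA 160299 bp away. MGA is the large MAX-binding protein of this group. In the MLX branch, in which MLXIP and MLXIPL respond to glucose, the closest peaks were 14233 bp from an end of MLXIPL, 50969 bp from MLX and 78554 bp from MLXIP, and 1 peak lay inside MLXIPL. So a peak was within 3 kb of an end for 2 of 12 network genes besides MYC, near the 14.9% of all protein-coding genes, and none was the nearest gene of more than 1 peak.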

How the data were processed

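Groups were taken from the sample labels. The submitters' processing notes name fastp, Bowtie2, deepTools, MACS2, ChIPseeker and GRCh38. Per the file headers, the authors ran MACS 2.2.7.1 on the paired-end fragments of each library separately, without duplicates, at a q-value of 0.05 and without a control library. The deposited tables give each peak's pileup signal (fragments, not scaled for depth). They also hold the authors' fold enrichment, a ratio to the local background within a library. The −log10 p-value and q-value are deposited as well.

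Peaks (1-based) were compared with 59679 genes of the RefSeq table for GRCh38.p14, which was used without strand or exons, so exon and intron classes were not computed. The p-value recomputed from the recovered background lay within 0.01 (−log10) of the deposited one for 31 of 31 members. The length of chromosome 8 was taken from the first to the last gene or peak, and a peak belonged to the window of its midpoint. Poisson, Clopper-Pearson and order-statistic intervals (of counts, shares and medians) are at 95%, and the limit for a share of 0 is 3 counts. Functions were tested on simulated data. With 1 library per group no test was run. Named were MYC, PVT1, the coding genes of the region, other genes there with a peak inside or within 3 kb of an end, a MYC network list, the 5 genes closest to MYC in nearest peaks, all peaks at MYC and PVT1, and the 5 peaks of highest and of lowest fold enrichment. The members and lists were chosen with earlier results of these data known. Python 3.11.15, NumPy 2.4.6, SciPy 1.17.1, pandas 2.3.3 and Matplotlib 3.10.9 were used.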

Additional observations from a re-analysis of the deposited data

How the results depend on the processing

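Over 10 results, 51 alternatives were computed, and 42 gave a value within 1.5 times for counts, within the 95% interval for shares, medians and densities, or within the peak's length for distances. With peaks at or above the median fold enrichment only, the region held 10 peaks in place of 31, MYC was nearest to 6 in place of 19, and the closest peak was 66410 bp from MYC in place of 0, since the peak at its end fell below that median. When all genes were counted, MYC was nearest to 1 peak. When only protein-coding genes were counted, 6.45% of members lay within 3 kb of a gene end in place of 19.4%. With the region 1 Mb narrower on each side, the density was 5.57 times that of the rest of chromosome 8 in place of 3.32. The number of members whose scaled pileup reached the control minimum, 7, was 1 at a q-value of 0.001 or less, where the control minimum itself is higher, 31 with the scale from shared peaks, which were selected for being called in the control, and 1 with the fragments needed for the lowest control p-value, an alternative chosen after seeing the data, as was leaving out members with a close neighbour. No control peak was found in the region, and no member shared bases with one, under any alternative computed.

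By the ratio of the totals, the median member would have 3.21 fragments in the control, but the scale between the libraries is not known. No paired analysis was possible because each group has 1 library.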
